A study of Mus musculus with 24 samples.

Results

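The H3K4me1 peak lists of 2 libraries are described here: 45657 peaks from cells given vitamin C and 57750 peaks from untreated cells, 103407 of the 400953 listed regions of the series. All peaks of both lists were taken, with no filter, and both libraries came from HOXA9-immortalized mouse bone marrow cells that carried a vector for mutant IDH1 (R132H). HOXA9 is a homeobox factor used to keep bone marrow progenitors growing, and IDH1 R132H is a mutant metabolic enzyme that makes 2-hydroxyglutarate, an inhibitor of TET enzymes and of histone demethylases. Vitamin C was brought to 0.345 mM at 0, 24 and 48 h and cells were harvested at 72 h. Both groups were grown in DMEM with 10% fetal bovine serum and 3 growth factors, murine SCF (20 ng/ml), human IL-6 (10 ng/ml) and murine IL-3 (6 ng/ml). The labels give neither the promoter of the vector nor the number of clones, and wild-type cells have no H3K4me1 library here. Each group had 1 library, as did each of the other assays set beside it, so no difference below could be tested against replicates. Intervals in parentheses are 95% Clopper-Pearson (binomial) intervals and cover counting error only.

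H3K4me1 is histone H3 carrying a single methyl group on lysine 4. It is laid down mainly by the KMT2C and KMT2D (MLL3 and MLL4) complexes, is removed by LSD1 (Kdm1a), and marks enhancers whether or not they are in use. H3K27ac, an acetyl mark set by p300 and CBP, is added at enhancers and promoters in use, while H3K4me3 marks active promoters. In myeloid cells PU.1 (gene Spi1) and RUNX1 bind many of the sites that carry H3K4me1.

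RNA-seq of the same conditions, at 111453443 reads on genes with vitamin C and 86804487 untreated, was used to check the cell type. Genes of myeloid progenitors were expressed in both libraries: Spi1 had 83.0 RPKM with vitamin C and 105 RPKM untreated, and Cebpa, a granulocyte lineage factor, had 161 RPKM with vitamin C and 198 RPKM untreated. RPKM scales reads by gene length and library size. All 6 B cell markers and all 5 fibroblast markers stayed under 1 RPKM in both libraries, with Ms4a1, Pax5, Col1a2 and Dcn at 0. Mast cell and basophil markers summed to 2865 RPKM with vitamin C and 2123 RPKM untreated, and 9 of the 10 were higher with vitamin C. The mast cell protease Cpa3 gave most of that sum, with 2488 RPKM with vitamin C and 1863 RPKM untreated. Erythroid markers summed to 1460 RPKM with vitamin C and 1308 RPKM untreated, led by Hbb-bt, with Alas2 at 0. A larger share of such cells and more RNA per cell cannot be told apart in bulk samples.

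Promoters at which the libraries differed, or did not, are shown to place the peaks described later. Each sequence runs 5′ to 3′ from 250 bases before to 50 bases after a RefSeq start site of build GRCm38.p6, and capitals mark matches to GAGGAAG (the PU.1 core). Other motifs searched were TGTGGT (the RUNX core) and TGANTCA (AP-1), all on both strands, and none of these overlapped another in the promoters shown. The first is the upstream start of Il1r1, the interleukin-1 receptor, at chr1:40224830-40225129 on the plus strand, which lay under the strongest peak of the untreated library and under no peak with vitamin C. The second is Mpo, the myeloperoxidase of neutrophil granules, at chr11:87793534-87793833 on the plus strand, which lay under a peak in both libraries. The third is Rnf149, a ubiquitin ligase gene, at chr1:39577298-39577597 on the minus strand, which overlapped a peak with vitamin C only and stands beside the strongest peak of that library.
Il1r1 promoter: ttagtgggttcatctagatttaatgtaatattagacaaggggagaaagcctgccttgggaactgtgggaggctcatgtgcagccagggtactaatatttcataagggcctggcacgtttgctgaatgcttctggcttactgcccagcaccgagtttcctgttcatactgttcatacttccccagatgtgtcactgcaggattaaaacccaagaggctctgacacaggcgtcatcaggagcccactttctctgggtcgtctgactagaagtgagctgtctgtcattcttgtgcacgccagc
Mpo promoter: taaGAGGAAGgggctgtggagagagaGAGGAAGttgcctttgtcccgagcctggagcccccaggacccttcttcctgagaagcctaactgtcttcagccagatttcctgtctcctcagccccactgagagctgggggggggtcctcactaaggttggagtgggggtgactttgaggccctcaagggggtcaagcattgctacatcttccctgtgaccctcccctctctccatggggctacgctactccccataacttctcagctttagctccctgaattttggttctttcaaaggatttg
Rnf149 promoter: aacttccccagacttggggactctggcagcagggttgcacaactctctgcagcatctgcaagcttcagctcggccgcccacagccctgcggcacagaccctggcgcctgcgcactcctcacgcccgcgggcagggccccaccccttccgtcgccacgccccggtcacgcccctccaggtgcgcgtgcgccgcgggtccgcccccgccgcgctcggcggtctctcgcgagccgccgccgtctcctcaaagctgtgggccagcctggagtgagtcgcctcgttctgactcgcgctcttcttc
The Il1r1 and Rnf149 windows held none of the 3 motifs, and the Mpo window held the PU.1 core at 2 positions. Over 21238 RefSeq promoters of protein-coding genes, 13.6% held the PU.1 core, 15.0% the RUNX core and 6.99% the AP-1 motif. Among promoters under a peak of both libraries (1323), with vitamin C only (961) and untreated only (2237), the PU.1 core was in 14.7%, 15.0% and 13.8%. The RUNX core was in 19.4% (17.3 to 21.6), 15.8% (13.6 to 18.3) and 16.8% (15.2 to 18.4) of the same 3 groups. Its share was highest where both libraries had a peak, though the intervals overlapped. The AP-1 motif was in 9.07%, 7.18% and 6.93%, also highest in the first group. Of 16717 promoters under no peak, 13.4% held the PU.1 core, 14.3% the RUNX core and 6.83% the AP-1 motif.

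The vitamin C library had fewer and narrower H3K4me1 peaks than the untreated library. The ratio of peak numbers was 0.791 (0.781 to 0.800). Peaks covered 108 Mb with vitamin C and 183 Mb untreated, which is 4.12% and 6.97% of the genome, a ratio of 0.591. Median width was 1163 bp with vitamin C and 1526 bp untreated, and peaks over 5 kb numbered 4930 (10.8%) with vitamin C and 9579 (16.6%) untreated. The other histone marks did not share this pattern. For H3K4me3 the ratio of peak numbers was 1.06 and that of covered bases 1.00, and for H3K27ac these ratios were 0.973 and 0.991. The lists also differed in how close peaks stood: the smallest gap was 725 bp with vitamin C and 1065 bp untreated, 2720 gaps with vitamin C and 0 untreated were under 1 kb, and the narrowest peaks were 181 bp and 266 bp. Joining vitamin C peaks closer than 1065 bp left 42400 of them and a number ratio of 0.734. Whether both lists were called with the same fragment and gap settings was not stated, and the part of such settings in the number and width ratios was not tested.

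**Figure D1:**
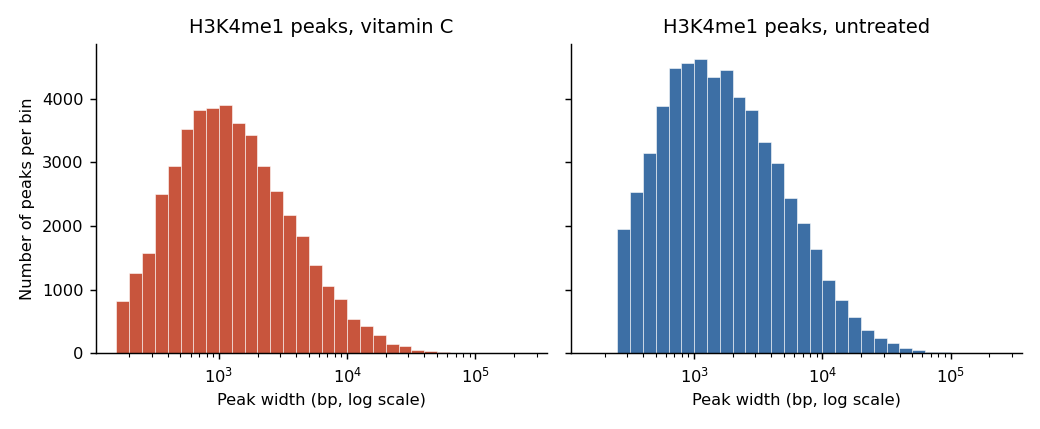
Number of H3K4me1 peaks (vertical axis) by peak width in bp (horizontal axis, log scale, equal log steps), vitamin C on the left and untreated on the right. Untreated peaks are more numerous in the bins over 5 kb, with 9579 peaks there against 4930 with vitamin C.

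The authors listed a p-value or q-value for each peak, and which of these it is was not stated; it is called the listed value here and only ranks peaks within a list. The best listed value was 2.01e-32 with vitamin C and 1.46e-61 untreated, and the median was 9.54e-09 with vitamin C and 2.05e-11 untreated. Just inside the limit of 1e-05, between 1e-06 and that limit, stood 19.5% of peaks with vitamin C and 11.5% untreated. Library depth is unknown, and it was not tested how far depth or the efficiency of the immunoprecipitation sets the number, width and listed values. A lower listed value is a stronger peak, and within each list it was almost unrelated to width: Spearman's rho of listed value with width was 0.18 over 45657 peaks with vitamin C and 0.15 over 57750 peaks untreated, against −0.83 to −0.86 in the 4 lists of H3K4me3 and H3K27ac. The 1000 strongest H3K4me1 peaks had a median width of 589.5 bp with vitamin C and 794.5 bp untreated.

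An overlap of at least 1 bp was found for 26235 vitamin C peaks, 57.5% (57.0 to 57.9), and for 23735 untreated peaks, 41.1% (40.7 to 41.5). Peaks of a single library numbered 19422 with vitamin C and 34015 untreated. In bases, 72.9 Mb lay under peaks of both libraries, 67.3% of the vitamin C bases and 39.8% of the untreated bases. As a share of all bases under a peak of either library this was 33.4%, against 79.5% for H3K4me3 and 77.0% for H3K27ac. Peaks of a single library did not abut peaks of the other: 2.22% of them with vitamin C and 0.908% untreated had a peak of the other library within 1 kb, and 55.0% and 40.0% within 10 kb.

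In broad groups by listed value, strong H3K4me1 peaks were found in the other library about as often as weak ones, but the very strongest less often. Split by listed value into 5 equal groups, the share found was 54.8%, 57.7%, 57.6%, 58.9% and 58.3% with vitamin C, strongest group first. Untreated, the groups had 41.1%, 41.9%, 41.4%, 41.2% and 39.9%. Of the 100 strongest peaks 48 were found with vitamin C and 34 untreated. Of the 1000 strongest, 47.4% (44.3 to 50.5) were found with vitamin C and 33.8% (30.9 to 36.8) untreated. Over all peaks these shares were 57.5% and 41.1%. Stronger groups were also narrower: the median width of the strongest and weakest group was 864 and 1408.5 bp with vitamin C, and 1122 and 1792 bp untreated. The part of width in these shares was not tested. In H3K4me3 and H3K27ac the strongest group was found in full, at 100%, and the weakest group at 52.8% to 63.6%. Over 26537 overlapping pairs of H3K4me1 peaks, Spearman's rho between the listed values of the libraries was 0.085, against 0.817 for H3K4me3 pairs and 0.755 for H3K27ac pairs. These shares and correlations are descriptions, since all peaks of a list come from 1 library.

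**Figure D2:**
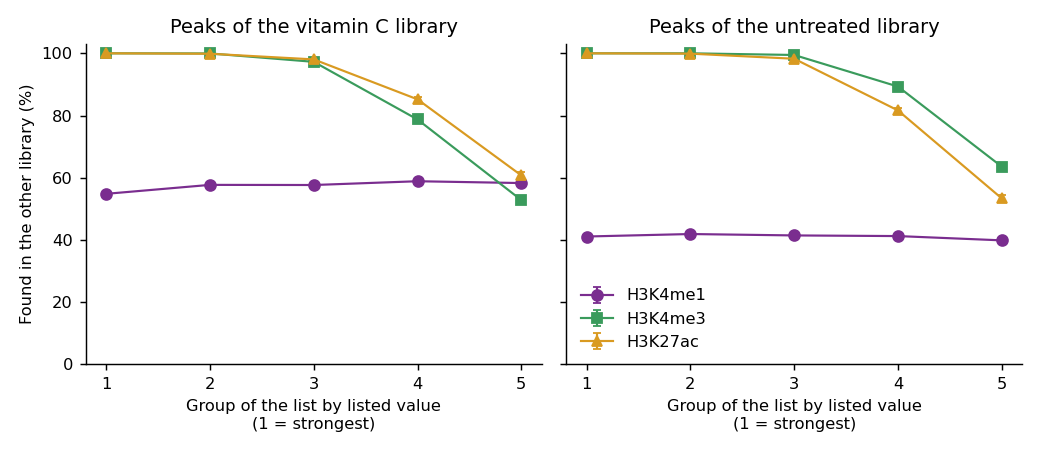
Share of peaks overlapping a peak of the other library by 1 bp or more (vertical axis, %) in 5 equal groups of each list by listed value (horizontal axis, 1 is the strongest), vitamin C on the left and untreated on the right; bars are 95% binomial intervals, mostly smaller than the symbols. H3K4me1 stays level at 54.8% to 58.9% with vitamin C and 39.9% to 41.9% untreated, while H3K4me3 and H3K27ac start at 100% and end between 52.8% and 63.6%.

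Across equal groups of a list, overlap differed more by width than by listed value. The widest 20% of peaks were found at 73.4% with vitamin C and 56.1% untreated, and the narrowest 20% at 41.9% with vitamin C and 24.0% untreated. A wider peak has more bases at which it can overlap. Shared peaks had a median width of 1421 bp with vitamin C and 2049 bp untreated, and single-library peaks 896 bp with vitamin C and 1230 bp untreated. Spearman's rank correlation between the widths of overlapping pairs was 0.698. The vitamin C peak was the wider of the pair in 26.0% of pairs, and the median ratio of widths, vitamin C over untreated, was 0.807.

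Position along genes differed little between the lists. Peaks within 1 kb of a protein-coding start site made up 12.7% with vitamin C and 11.7% untreated, peaks elsewhere in a gene span 49.6% and 49.2%, and peaks outside gene spans 37.7% and 39.1%. Shared peaks were near a start in 13.4% with vitamin C and 14.0% untreated. Single-library peaks were near a start in 11.7% with vitamin C and 10.1% untreated. The median distance to the nearest start was 20.5 kb with vitamin C and 22.6 kb untreated, and 16.1% and 18.2% of peaks lay over 100 kb from any start.

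Chromosome X stood apart from the autosomes. It held 399 peaks with vitamin C and 888 untreated, a ratio of 0.449 (0.398 to 0.506), whereas the ratios of the 19 autosomes ran between 0.746 and 0.847. Covered bases on X had a ratio of 0.249, against 0.562 to 0.637 on the autosomes, and 31.3% of vitamin C peaks and 13.1% of untreated peaks on X were found in the other library. The H3K4me3 lists had a ratio of 0.978 (0.903 to 1.06) on X, against 1.03 to 1.11 on the autosomes. The H3K27ac lists had 0.888 (0.810 to 0.973) on X, against 0.935 to 1.02. Both ratios on X lay below those of the autosomes, although both intervals reached into the autosome range. PU.1 had a ratio of 0.307 on X, against 0.355 to 0.467 on the autosomes, and Runx1 had 2.74 on X, against 1.39 to 1.94. RNA of the 292 measured X-linked genes had a median log2 ratio of −0.01, beside −0.04 on the autosomes. The number of X chromosomes in these cells was not examined.

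Peaks of other factors were read from the lists of the same treatment. H3K27ac peaks were overlapped by 29.3% of shared and 17.9% of single-library H3K4me1 peaks with vitamin C, and by 34.2% of shared and 22.3% of single-library peaks untreated. For H3K4me3 these shares were 40.1% and 28.7% with vitamin C, and 42.8% and 29.6% untreated. PU.1 peaks lay under 15.0% and 9.54% with vitamin C, and under 34.4% and 25.3% untreated, with PU.1 lists of 23522 peaks with vitamin C and 61611 peaks untreated. Runx1 peaks lay under 2.79% and 1.84% with vitamin C, and under 2.74% and 1.60% untreated. Shared peaks are wider, and at a width of 1 to 2 kb the gap between shared and single peaks nearly closed: H3K27ac was at 16.7% and 15.9% with vitamin C, and at 13.4% and 12.3% untreated. PU.1 in the same width class was at 9.52% and 9.58% with vitamin C, and at 22.0% and 19.9% untreated. No peak of the 4 other lists lay under 53.6% of shared and 65.7% of single-library peaks with vitamin C, and under 43.2% and 57.0% untreated.

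**Figure D3:**
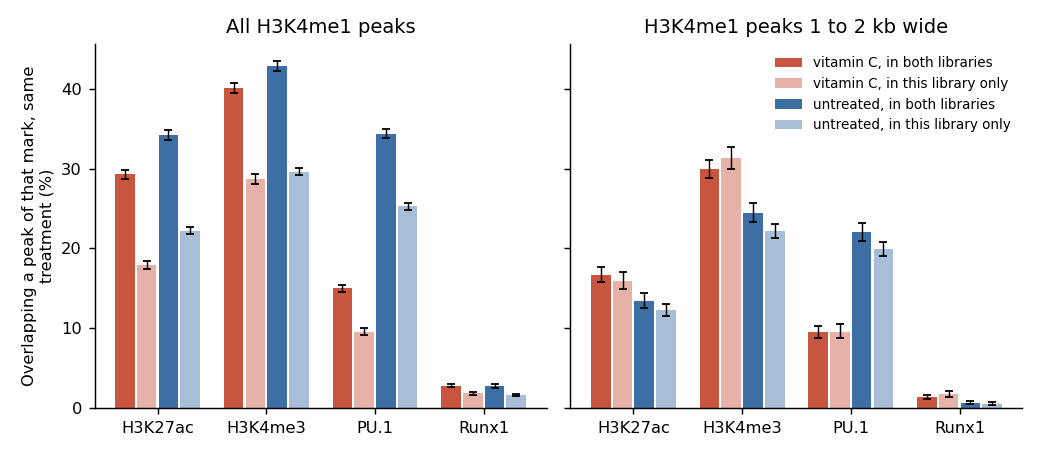
Share of H3K4me1 peaks overlapping an H3K27ac, H3K4me3, PU.1 or Runx1 peak of the same treatment (vertical axis, %), for all peaks on the left and for peaks 1 to 2 kb wide on the right; bars are split into peaks of both libraries and of 1 library, with 95% binomial intervals. Over all peaks the shared class is higher for each mark (H3K27ac 29.3% and 17.9% with vitamin C, 34.2% and 22.3% untreated), and at 1 to 2 kb the classes lie closer together.

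A site that had H3K4me1 in 1 library only had much the same H3K27ac in both. Of the H3K4me1 peaks found with vitamin C only, 17.9% overlapped an H3K27ac peak of the vitamin C library and 18.4% one of the untreated library. Of those found untreated only, 21.3% overlapped an H3K27ac peak of the vitamin C library and 22.3% one of the untreated library. Read from the side of H3K27ac, peaks under single-library H3K4me1 were found in the other H3K27ac list in 90.3% of cases with vitamin C and 86.6% untreated. H3K27ac peaks under no H3K4me1 peak were found in the other list in 89.1% with vitamin C and 87.0% untreated. H3K4me1 covered fewer of the other marks' peaks with vitamin C: it overlapped 43.8% of H3K27ac peaks with vitamin C and 64.4% untreated. The same shares were 45.1% and 64.9% for H3K4me3, 29.8% and 38.9% at PU.1 peaks, and at Runx1 peaks they were 18.1% and 31.6%. These lower shares went with a smaller length under H3K4me1 peaks, 108 Mb with vitamin C and 183 Mb untreated. The part of that length in the shares was not tested.

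Most of the broadest H3K4me1 domains had a counterpart: all 5 of the widest with vitamin C overlapped an untreated peak, and 4 of the 5 widest untreated ones overlapped a vitamin C peak. The widest with vitamin C spanned 183158 bp in Cux1, a homeobox gene (chr5:136380988-136564145), where the untreated library had 2 peaks of 180623 bp in sum. The widest untreated domain spanned 183231 bp in Etv6, an ETS repressor needed by blood stem cells (chr6:134040166-134223396), beside 173442 bp with vitamin C. Domains of Gng12, a G protein subunit gene, were 102571 bp with vitamin C and 102031 bp untreated, and domains of the cell cycle kinase gene Cdk6 were 89994 bp and 89617 bp. At Runx1 the assigned peaks covered 213 kb with vitamin C and 223 kb untreated. Covered length at these loci was similar in both libraries, but not at every shared domain. Vitamin C peaks summed to 43369 bp at a domain of 124557 bp untreated in Msi2, an RNA-binding protein gene, and to 84223 bp at one of 122652 bp untreated in Auts2.

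Other broad domains were listed in the untreated library alone. Of domains over 20 kb, 19 of 375 with vitamin C (5.07%) and 268 of 919 untreated (29.2%) had no peak of the other library anywhere within them. Over 50 kb the counts were 0 of 32 with vitamin C and 23 of 88 untreated. The widest of these was a domain of 131341 bp in Fut8, a fucosyltransferase gene (chr12:77242147-77373487), followed by 109144 bp in Mgat5, an N-glycan branching enzyme gene (chr1:127256302-127365445), and 98089 bp at Hipk2, a nuclear kinase gene (chr6:38775684-38873772). Acetylation was listed there in both libraries: the Fut8 domain held 3 H3K27ac peaks with vitamin C and 3 untreated, the Mgat5 domain 15 and 16, and the Hipk2 domain 8 and 9. Of the 268 untreated-only domains, 257 overlapped an H3K27ac peak of the vitamin C library and 258 one of the untreated library. The nearest vitamin C H3K4me1 peak began 4.23 kb from the Fut8 domain and 1.26 kb from the Mgat5 domain. The widest domain found with vitamin C only spanned 33661 bp in Fndc3a (chr14:72661898-72695558) and held 4 H3K27ac peaks in each library. Among vitamin C domains over 20 kb 40.5% had listed values between 1e-06 and the limit of 1e-05, and among untreated ones 12.1%.

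The strongest peaks were narrow and often of 1 library. With vitamin C the strongest peak, at 2.01e-32, spanned 4858 bp in the body of Rnf149 (chr1:39571176-39576033) and had no untreated counterpart, while H3K27ac and H3K4me3 peaks of its own library overlapped it. The next lay in Prkar2b, a protein kinase A subunit gene, spanned 299 bp and also had none. The third, of 203 bp, lay 145486 bp from the sialyltransferase gene St3gal1 and was matched by an untreated peak of 2308 bp. Untreated, the strongest peak sat on the upstream Il1r1 start printed above (chr1:40224419-40225695, 1.46e-61) and the next in Il1r2 (chr1:40091049-40091885, 3.44e-61), and neither had a vitamin C counterpart.

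The interleukin-1 receptor cluster on chromosome 1 holds Il1r2 (a decoy receptor), Il1r1, Il1rl2, Il1rl1 (the IL-33 receptor), Il18r1 and Il18rap. With 50 kb on both sides it had 21 H3K4me1 peaks over 61.0 kb with vitamin C and 28 peaks over 105 kb untreated. Of the 100 strongest untreated peaks 9 fell in a single 1-Mb bin, the one with Il1r1 and Il1r2, whereas the fullest bin with vitamin C held 3, beside Nedd1 on chromosome 10. The best listed value in the cluster was 2.52e-14 with vitamin C, short of the 1.22e-17 that closed the 1000 strongest peaks of that library. The high untreated peaks stood in the Il1r2 and Il1r1 part of the cluster, and the best untreated value between Il1rl1 and Il18rap was 4.91e-21. With vitamin C the best values of these parts were alike, 2.52e-14 at Il1r1 and 5.05e-14 at Il1rl1. H3K27ac covered 29.9 kb of the cluster with vitamin C and 25.8 kb untreated. Il1r1 and Il1r2 RNA stayed under 1 RPKM in both libraries, Il1rl1 had 27.2 RPKM with vitamin C and 11.3 RPKM untreated, and Il18rap had 49.2 RPKM with vitamin C and 27.3 RPKM untreated.

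**Figure D4:**
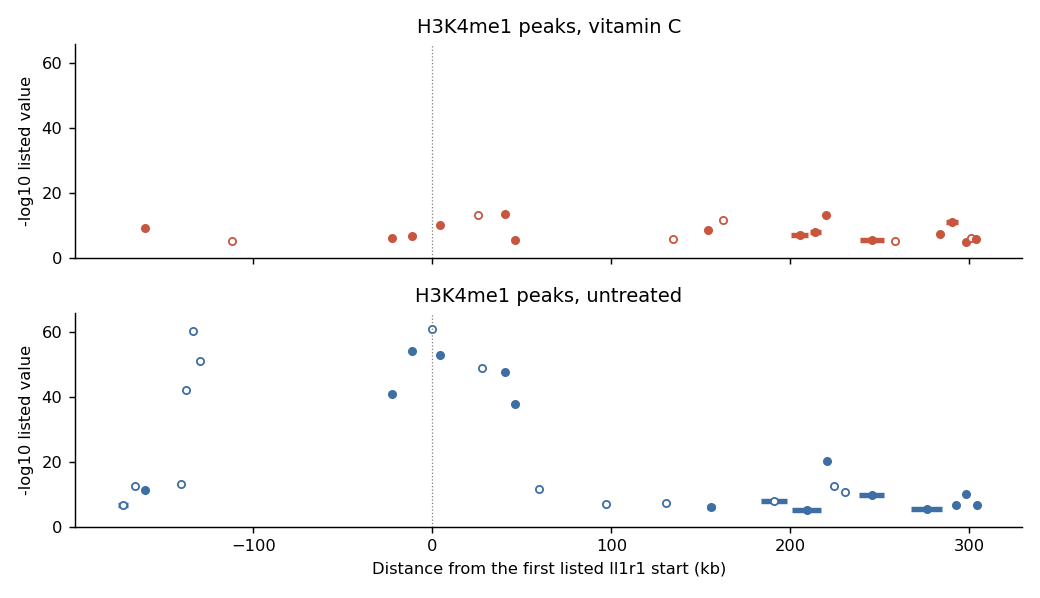
H3K4me1 peaks of the interleukin-1 receptor cluster by distance from the upstream Il1r1 start in kb (horizontal axis) and −log10 of the listed value (vertical axis), vitamin C above and untreated below. Horizontal lines show peak width, filled points are peaks found in both libraries and open points are peaks of that library only. The 21 vitamin C peaks reach at best 2.52e-14 and the 28 untreated peaks 1.46e-61. Listed values rank peaks within a library, and library depth is unknown, so heights are not a measure of strength between libraries.

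Each peak was next given to the nearest protein-coding start within 100 kb of its midpoint. This assigned 38313 peaks with vitamin C and 47250 untreated, a ratio of 0.811, to 11654 genes with vitamin C and 13694 genes untreated. Spearman's rho of peaks per gene between the libraries was 0.642. Of 6521 genes with at least 5 peaks over both libraries, 1719 (26.4%) had at least 2-fold fewer peaks with vitamin C and 850 (13%) at least 2-fold more. This balance depended on list length: with the same number of strongest peaks taken from both lists, 1089 of 5786 genes (18.8%) had fewer and 1246 (21.5%) had more. The kilobases under assigned peaks were lower with vitamin C at 71.3% of genes with any peak, 11004 genes, and higher at 4424 genes.

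Genes were next taken in order of the difference in their number of peaks, among those with 1 RPKM or more. Plcl2, a phospholipase-like gene, had 10 peaks with vitamin C and 29 untreated, over 36.8 kb and 72.6 kb, while its H3K27ac covered 19.9 kb and 20.2 kb. Chd7, a chromatin remodeller, had 10 peaks with vitamin C and 27 untreated, and its RNA was 1.47 RPKM with vitamin C and 10.2 RPKM untreated. Cdca7l, a MYC-interacting gene, had 0 peaks with vitamin C and 14 untreated, with RNA of 28.2 RPKM with vitamin C and 32.3 RPKM untreated. The receptor gene Igf1r had 5 peaks with vitamin C and 19 untreated, with RNA of 17.3 and 18.5 RPKM. The other 8 of the 12 largest differences downward, by 12 to 14 peaks, included Filip1l, Ccnb2 (cyclin B2), Ubash3b, Pex14, Rnf180, Sdc2 (a syndecan) and Asph. Among these 12 genes RNA was at least 2-fold lower with vitamin C at Chd7 and Sdc2 and within 2-fold at the other 10. Of all 10018 genes measured 1.91% were lower and 2.39% higher, and 12 genes are too few to set against these shares.

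The 12 largest differences upward began with Tnik, a kinase of Wnt signalling, with 24 peaks with vitamin C and 8 untreated. Cep83 had 17 peaks with vitamin C and 4 untreated, and Gmds 22 with vitamin C and 9 untreated. St3gal1 had a similar covered length split over more peaks with vitamin C, 25 peaks over 108 kb with vitamin C and 13 peaks over 105 kb untreated. The group also held Birc6, Tmem161b, Smurf2, Rngtt, Zfp326, Htr1b and Tmem135. RNA of Htr1b, a serotonin receptor gene, was 3.84 RPKM with vitamin C and 0.851 RPKM untreated, and the other 11 were within 2-fold. Over all genes measured 2.39% were at least 2-fold higher and 1.91% lower.

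In covered kilobases, genes chosen after their values were seen, the differences were larger. Fut8 had 56.6 kb with vitamin C and 292 kb untreated, beside H3K27ac of 36.7 kb and 28.7 kb and RNA of 269 and 285 RPKM. Zfp608 had 4.40 kb and 135 kb, Ikzf2 (Helios, a lymphoid zinc finger factor) 30.0 kb and 149 kb, and Fndc3b 4.41 kb and 118 kb. In the other direction Igfbp7, a secreted growth factor binding protein gene, had 37.8 kb with vitamin C and 3.33 kb untreated, and the chemokine receptor gene Ccr1 had 68.4 kb and 29.8 kb.

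RNA did not follow the H3K4me1 lists across genes. RNA was at least 2-fold higher with vitamin C at 239 of 10018 genes with 1 RPKM or more (2.39%) and at least 2-fold lower at 191 (1.91%), on the scale of log2 of RPKM plus 0.5. Genes with at least 2-fold fewer peaks had a median log2 ratio of −0.02 over 1156 genes, genes with at least 2-fold more peaks −0.03 over 577 genes, and all genes −0.04. Of the 1156 genes 37 were at least 2-fold higher in RNA and 32 lower, and of the 577 genes 14 were higher and 12 lower. Spearman's rank correlation between the log2 ratio of peaks and that of RNA was −0.018 over 4561 genes. Taken from the RNA side, genes with higher RNA had 702 peaks with vitamin C and 872 untreated, a ratio of 0.81, and genes with lower RNA had 663 and 805 peaks, a ratio of 0.82. In 4 equal groups of genes by untreated RPKM, the ratio of covered kilobases ran between 0.588 and 0.616. H3K27ac kilobases, vitamin C over untreated, had ratios of 0.995 at the genes with fewer H3K4me1 peaks and 0.985 at those with more, where H3K4me1 kilobases had ratios of 0.310 and 1.33.

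Genes of stem and progenitor cells, including targets and partners of HOXA9, had the lowest ratio of H3K4me1 length among the 13 gene lists in the plot of ratios by list. Over 14 genes the assigned peaks covered 155 kb with vitamin C and 644 kb untreated, a ratio of 0.242 beside 0.599 for all genes, and 13 of the 14 were lower with vitamin C, beside 71.3% of all genes with a peak. Their H3K27ac ratio was 1.01, beside 1.00 for all genes. Of the 9 members with 5 or more peaks 4 had at least 2-fold fewer and 1 at least 2-fold more, beside 26.4% and 13% of all genes tested. The gene lists were chosen with earlier results of these data known, so shares set beside all genes are descriptions only. A broad peak counts for 1 gene only under this assignment. The erythroid marker list, with little H3K4me1, was lower still, at 5.78 kb with vitamin C and 30.6 kb untreated over 8 genes. Counting bases inside gene spans with 50 kb on both sides gave 243 kb with vitamin C and 763 kb untreated, a ratio of 0.319 beside 0.595 for all genes.

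By that count of bases, Cd34, a surface protein of blood progenitors, had 12.1 kb with vitamin C and 83.9 kb untreated, beside H3K27ac of 15.6 kb and 18.3 kb. Its RNA was 498 RPKM with vitamin C and 299 RPKM untreated. Erg, an ETS factor of stem cells, had 13.2 kb with vitamin C and 95.9 kb untreated, beside H3K27ac of 54.4 kb and 48.9 kb. Myb, a progenitor transcription factor, had 21.4 kb with vitamin C and 90.0 kb untreated, beside H3K27ac of 35.2 kb and 34.3 kb and RNA of 155 and 200 RPKM. Meis1, the partner of HOXA9, had 27.6 kb with vitamin C and 83.9 kb untreated, beside H3K27ac of 19.1 kb and 20.3 kb. Bcl2, a survival factor, had 53.8 kb with vitamin C and 193 kb untreated, beside H3K27ac of 59.9 kb and 54.9 kb. Over these 5 loci the ratio of H3K4me1 length, vitamin C over untreated, lay between 0.138 and 0.329, and that of H3K27ac length between 0.855 and 1.11.

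Other progenitor genes differed less. Lmo2, a cofactor of blood stem cells, had 56.6 kb with vitamin C and 63.0 kb untreated by the same count. Kit, the receptor of the SCF in the medium, had 23.3 kb with vitamin C and 34.3 kb untreated, a ratio of 0.681, while its RNA was 5.07 RPKM with vitamin C and 32.1 RPKM untreated. The Hoxa9 gene itself had 2 peaks in each library over 0.989 kb with vitamin C and 1.02 kb untreated. Its RNA was 1487 RPKM with vitamin C and 3062 RPKM untreated, and neighbours Hoxa7 and Hoxa10 were under 1 RPKM in both. RNA of the HOXA9 introduced to immortalize the cells cannot be told apart from that of this locus.

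**Figure D5:**
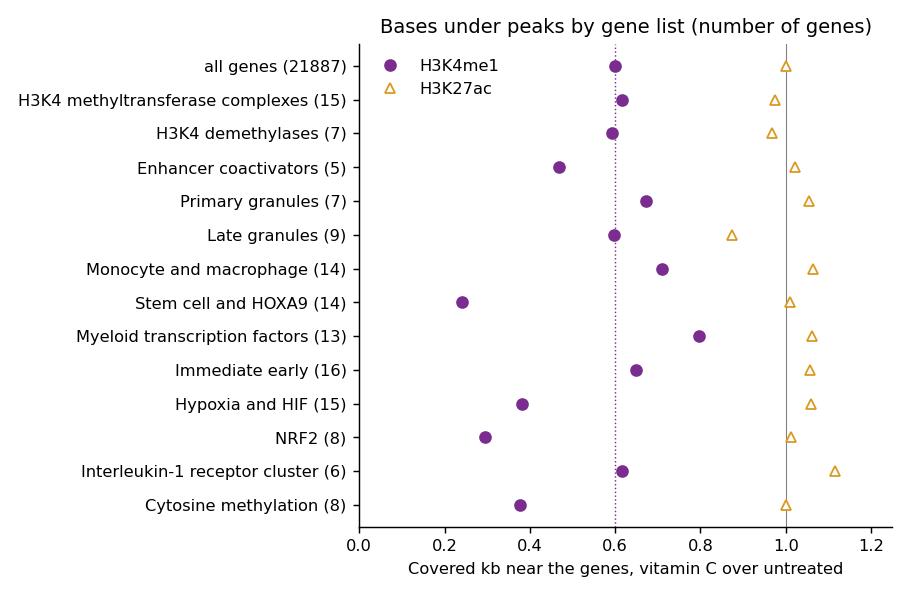
Ratio of kilobases under assigned peaks, vitamin C over untreated (horizontal axis), for all genes and for each gene list with its number of genes (vertical axis); circles are H3K4me1 and triangles H3K27ac, the dotted line is H3K4me1 over all genes and the solid line is a ratio of 1. H3K4me1 lies below 1 in each list, lowest at 0.242 for stem cell and HOXA9 genes, while H3K27ac lies between 0.874 and 1.11.

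The ratio of transcription factors of the myeloid lineage rested on a pair of members. Over 13 genes the length was 644 kb with vitamin C and 809 kb untreated, a ratio of 0.796, although 11 of the 13 were lower, beside 71.3% of all genes with a peak. Runx1 and Etv6 held the largest part of it, and without them, a choice made after the values were seen, the other 11 genes had 258 kb with vitamin C and 402 kb untreated, a ratio of 0.640 beside 0.599 for all genes. Spi1 had 1 peak of 0.924 kb with vitamin C and 2 peaks over 17.4 kb untreated, beside H3K27ac of 14.2 kb and 12.9 kb. Cebpe, a factor of late granulocytes, had 4.14 kb with vitamin C and 28.4 kb untreated, Cebpa 21.4 kb and 15.8 kb, and Gfi1, a granulocyte repressor, 56.5 kb and 74.8 kb. Fli1, an ETS factor, had 8 peaks over 19.5 kb with vitamin C and 3 peaks over 90.5 kb untreated.

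Genes of granules and of monocytes lay near the ratio of all genes. Primary granule genes, which encode enzymes stored early in neutrophil development, had a ratio of 0.671 over 7 genes. Mpo among them had 17.4 kb with vitamin C and 15.8 kb untreated, and its RNA was 131 RPKM with vitamin C and 796 RPKM untreated. Late granule genes had a ratio of 0.598 over 9 genes and monocyte and macrophage genes 0.711 over 14 genes. Hpgd, a prostaglandin-degrading enzyme gene, had 8.66 kb with vitamin C and 37.3 kb untreated within 50 kb of its span, and RNA of 20.8 RPKM with vitamin C and 208 RPKM untreated.

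Immediate early genes had higher RNA with vitamin C and no greater H3K4me1 length. RNA was at least 2-fold higher at 13 of 16 genes, beside 2.39% of all genes, with a median log2 ratio of 2.27 beside −0.04 for all genes. The list was chosen with earlier results of these data known, so these values describe it and do not test for enrichment. H3K4me1 peaks over the 16 genes numbered 45 with vitamin C and 67 untreated, with a ratio of lengths of 0.649 beside 0.599 for all genes. Of the 16 genes 14 were lower in length, beside 71.3% of all genes with a peak. Fos, an AP-1 subunit, had 8 peaks over 32.2 kb with vitamin C and 15 peaks over 45.4 kb untreated, and its RNA was 74.5 RPKM with vitamin C and 0.187 RPKM untreated. Egr1, a zinc finger factor, had 0 peaks with vitamin C and 3 untreated, and RNA of 88.4 RPKM with vitamin C and 0.987 RPKM untreated. Fosb had 0 peaks with vitamin C and 1 untreated, and RNA of 26.9 RPKM with vitamin C and 0.205 RPKM untreated. The H3K27ac length over the list had a ratio of 1.06.

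Targets of HIF, the hypoxia factor whose hydroxylases use vitamin C, and of NRF2, the factor of the oxidant response, had higher RNA and a smaller H3K4me1 length with vitamin C. RNA was at least 2-fold higher at 7 of 14 measured hypoxia genes and at 4 of 8 NRF2 genes, beside 2.39% of all genes, and lower at none. Both lists were chosen with earlier results of these data known, so these shares are descriptions and no test of enrichment. The H3K4me1 length ratio was 0.381 over 15 hypoxia genes, 12 of them lower, and 0.296 over 8 NRF2 genes, all 8 of them lower, beside a ratio of 0.599 for all genes and 71.3% of genes lower. With bases counted inside gene spans and 50 kb on both sides, the ratios were 0.497 for hypoxia genes and 0.408 for NRF2 genes, beside 0.595 for all genes. Bnip3, a mitophagy gene, had 0 peaks with vitamin C and 6 untreated, and RNA of 107 RPKM with vitamin C and 15.8 RPKM untreated. Ndrg1 had 1 peak with vitamin C and 9 untreated, and RNA of 40.8 RPKM with vitamin C and 12.5 RPKM untreated. Hmox1, the haem oxygenase of the NRF2 list, had 1 peak with vitamin C and 4 untreated, and RNA of 101 RPKM with vitamin C and 12.9 RPKM untreated. Against the trend, Ddit4 had 23.8 kb with vitamin C and 4.17 kb untreated, and Vegfa, the vascular growth factor, 21.5 kb and 16.7 kb. Both had higher RNA with vitamin C, at 117 and 40.2 RPKM, against 46.8 and 21.3 RPKM untreated.

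The enzymes that write and erase H3K4 methylation were expressed in both libraries within 2-fold. None of the 15 genes of H3K4 methyltransferase complexes passed 2-fold in RNA. Nor did any of the 6 measured genes of the H3K4 demethylase list, which counts Rcor1, a partner of LSD1 and not itself a demethylase. Of all genes 2.39% were higher and 1.91% lower, so that few or no calls among so few genes are not particular to them. Kmt2c had 5.12 RPKM with vitamin C and 8.70 RPKM untreated, Kmt2d 20.6 and 27.6 RPKM, and Kdm1a 24.6 and 27.1 RPKM. Kdm5b, an H3K4 demethylase, had 7.05 RPKM with vitamin C and 11.8 RPKM untreated. The H3K4me1 length over these lists had ratios of 0.615 for the methyltransferase complexes and 0.592 for the demethylase list, near that of all genes. Rcor1 held 44.8 of the 71.1 kb of the demethylase list with vitamin C and 46.2 of its 120 kb untreated. The demethylase genes without Rcor1 thus had a lower ratio than the list. Genes of enhancer coactivators had a ratio of 0.469 over 5 genes. Genes of cytosine methylation had a ratio of 0.378 over 8 genes. Among them Tet2, which oxidises 5-methylcytosine with vitamin C as a cofactor, had 27.5 kb with vitamin C and 49.1 kb untreated and RNA of 6.45 and 12.8 RPKM, and Tet3 had 0 kb and 46.6 kb.

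Regions that the authors listed from DNA methylation assays were set against both peak lists, under the names the files give them. Of 6496 WGBS deMR regions, 30.4% overlapped an H3K4me1 peak with vitamin C and 44.9% one untreated. Of 7829 hMeDIP iHR regions, 18.4% overlapped a peak with vitamin C and 27.6% one untreated. Of 8374 WGBS iMR regions these shares were 3.92% and 5.83%. Per megabase under H3K4me1 peaks the WGBS deMR regions numbered 18.2 with vitamin C and 15.9 untreated, and the WGBS iMR regions 3.03 and 2.66. The lower shares with vitamin C thus went with the smaller covered length. How these lists were thresholded, and in which direction, was not stated.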

How the data were processed

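H3K4me1 ChIP-seq was read from 1 peak list per treatment, as deposited. Column 4 of each histone list is a p-value, or a q-value, that the authors deposited without saying which, and the PU.1 and Runx1 lists hold a score that the authors deposited without a definition. The RNA files hold a read count and an RPKM value per Ensembl gene, both made by the authors, and 22371 genes were measured, of which 20247 matched a RefSeq protein-coding gene. Per the submitters' processing notes the build was mm10, and the tools named, without role or order, were BWA, CASAVA 1.8.2, MACS2 2.1.0.2, Picard and SAMtools 0.1.16. Peaks were listed per library. The depth of the ChIP libraries is unknown.

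Overlaps, widths and gene neighbourhoods were computed with Python 3.11.15, numpy 2.4.6, pandas 2.3.3 and scipy 1.17.1. Repeated intervals in the PU.1 and Runx1 lists were removed, and the histone lists held none. Start sites came from RefSeq (GRCm38.p6) for 17492 of 21887 protein-coding genes, and for the other 4395 both ends of the gene span stood in for the start and were left out of the share near starts. Peak to gene assignment took the nearest start within 100 kb of the peak midpoint, and the calls of fewer and more peaks need at least 5 peaks over both libraries and a 2-fold difference. RNA ratios are on the scale of log2 of RPKM plus 0.5, for genes that reach 1 RPKM in either library. With 1 library per group no test was run, and deposited read counts give depth only. Overlap functions were tested on simulated intervals, which they matched in full.

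Genes named are the 12 largest differences in peak number in each direction, a fixed set of myeloid and vitamin C related genes, the genes at the 5 strongest and 5 widest peaks of each list and class, and up to 4 members per gene list with the largest difference in peak number or RNA. The members and lists were chosen with earlier results of these data known, and the other genes named, among them Erg, Lmo2 and those ranked by covered kilobases, were chosen after their values were seen. Alternatives covered the peak threshold, width, merging, overlap and gene rules. Inputs, the lists of RNA calls the authors deposited and unnamed columns of the RNA files were not used here. The region list filed under the wild-type MeDIP sample is named for the mutant and is not reported, and some genes that these rules name are not reported here.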

Additional observations from a re-analysis of the deposited data

How the results depend on the processing

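No paired analysis was possible because each group has 1 library, and no replicate could be left out. Over 41 results and 102 alternatives, 71 alternatives left the range set around the main value and 31 stayed within it. Only results that are ratios of vitamin C to untreated could cross 1, and none of these did. Shares, gene counts and RNA medians could not be read in this way. The order of some values turned round, as given below. The ratio of peak numbers was 0.422 with listed values of at most 1e-10 only, 0.730 with peaks of at least 500 bp, 0.743 with peaks under 1 kb apart merged and 0.734 with vitamin C peaks merged to the smallest untreated gap. At 1e-10 the ratio of covered bases was 0.233 and that of median widths 0.675, and merging at 1 kb gave a width ratio of 0.808. The share of vitamin C peaks found untreated was 39.2% with reciprocal 50% overlap, 58.4% within 1 kb, 33.3% at 1e-10 and 45.9% with lists of equal length. The share of untreated peaks found with vitamin C was 31.0% with reciprocal overlap, 41.6% within 1 kb, 13.2% at 1e-10 and 41.5% without chromosome X. Peaks near a start made up 17.0% (vitamin C) and 16.6% (untreated) at 2.5 kb, and 11.7% of vitamin C peaks at 1e-10. Overlap of H3K27ac with at least 50% of the H3K4me1 peak was 4.03% and 2.90% for shared and single vitamin C peaks and 2.95% and 2.60% for shared and single untreated peaks. With the same rule shared peaks fell below single ones for H3K4me3 with vitamin C (7.87% and 8.35%) and for PU.1 with vitamin C (0.442% and 0.664%) and untreated (1.05% and 1.91%), the reverse of the order at 1 bp. At 1e-10 the 4 H3K27ac shares were 18.8%, 15.3%, 25.2% and 23.5%. Genes with fewer peaks numbered 474 at a minimum of 10 peaks and 1089 with lists of equal length. Genes with more peaks numbered 246 at 1e-10, 197 at a minimum of 10 peaks and 467 by covered bases, so the count of 850 depends on the setting. With lists of equal length 1246 genes had more peaks, above the 1089 with fewer, which turns round the order of the main counts. The median RNA log2 ratio was −0.057 for genes with fewer peaks by gene span with 10 kb on both sides, and −0.060 for genes with more peaks at 1e-10. The threshold of 1e-10 kept 13247 vitamin C peaks (29.0%) and 31392 untreated peaks (54.4%). How far library depth sets these shares was not tested. The cause of the differences between settings was not tested. The alternatives on merging, chromosome X, listed starts, equal list length for gene counts, bases within 50 kb and the myeloid list without Runx1 and Etv6 were added after the data were seen.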

Other observations

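Among the mast cell and basophil genes H3K4me1 went in both directions. Of the 8 marker genes with a peak 5 were lower in covered length with vitamin C and 3 higher, 62.5% lower beside 71.3% of all genes. Over the 10 marker genes, assigned peaks covered 67.6 kb with vitamin C and 125 kb untreated, while H3K27ac covered 64.4 kb and 55.8 kb. Cpa3, a mast cell protease, had no H3K4me1 peak with vitamin C and 37.9 kb untreated, with RNA of 2488 RPKM with vitamin C and 1863 RPKM untreated. Ms4a2, a chain of the IgE receptor, Il4 and Mcpt8 were the 3 higher ones. Ms4a2 had 17.4 kb with vitamin C and 1.44 kb untreated, Il4 8.18 kb and 0 kb, and Mcpt8 5.51 kb and 1.65 kb. RNA of Ms4a2 was 5.78 RPKM with vitamin C and 1.23 RPKM untreated. Cma1, a chymase, had 11.9 kb with vitamin C and 24.6 kb untreated, and RNA of 14.6 RPKM with vitamin C and 0.359 RPKM untreated.

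Genes were also grouped by a peak within 1 kb of their start. The start had a peak in both libraries at 3221 genes, with vitamin C only at 1783 and untreated only at 3061. The median RNA log2 ratio was −0.04 in the first group, −0.04 in the second and −0.06 in the third. The H3K27ac length ratio was 1.01 in each. Idh1, the mouse gene of the enzyme carried mutant on the vector, had 0 peaks with vitamin C and 5 untreated, over 14.6 kb, and its RNA was 68.3 RPKM with vitamin C and 76.2 RPKM untreated, from which the mutant transcript cannot be told apart.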
